A study of Mus musculus with 6 samples.

Results

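Genes of the nuclear pore and of the receptors that carry cargo through it were examined in RNA sequencing of DN3 thymocytes. These are CD4 and CD8 double-negative cells of the mouse thymus that carry CD25 and rearrange the T-cell receptor beta gene. A gene was taken in when GENCODE M21 lists it as protein-coding and its symbol starts with Nup (Nupr symbols left out) or with Ipo, Xpo, Kpna, Kpnb or Tnpo and a digit. The rule gave 42 of the 21135 genes listed, 21 of them nucleoporins and 21 transport receptors. Nupl1, Kpna7 and Nup62cl also carry such symbols and were not analysed here. The mice were C57BL/6 and differed in NMe, a distal enhancer of Myc bound by Notch1. In the mutant, GATA sites 1 and 2 of NMe were altered on both alleles (3 libraries), and the other mice were wild type for NMe (3 libraries). The labels call the mutation homozygous and name no Cre or inducing agent. The labels do not give the age or sex of the mice, or say whether each library came from a separate animal.

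The nuclear pore complex is the channel through the nuclear envelope. Its scaffold consists of outer rings built from the Y-shaped complex and of an inner ring, and nucleoporins rich in phenylalanine-glycine repeats fill the central channel. Importins carry proteins with a nuclear localisation signal inward, exportins carry proteins and RNAs outward, and the small GTPase Ran sets the direction by loading and unloading them. Growing and dividing cells need this transport to bring ribosomal proteins and histones in and to send ribosomal subunits out.

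Each library held 38.6 to 51.3 M reads. Myc, the gene that the enhancer serves, had 5562, 4612 and 6165 normalised reads in the mutant libraries, against 18041, 19223 and 20196 in the wild-type libraries. All 8 markers of DN3 cells on the list were present, with summed normalised counts of 276809 to 317719 in mutant and 189487 to 215928 in wild-type libraries. Of these 8, Il2ra, Notch1, Dtx1 and Cd3e were called higher, Rag1 lower (-0.58 ± 0.10, adjusted p = 0.0035), and Rag2, Ptcra and Bcl11b were not called. Markers of double-positive thymocytes (3 of 3 listed) summed to 213 to 267 in mutant and 235 to 259.7 in wild-type libraries, but Cd4 and Cd8a had every mutant library below and Cd8b1 every mutant library above the wild-type libraries (log2 changes of -0.94, -0.80 and 0.42, none called). Erythroid markers (3 of 4 listed) summed to 33.1 to 53.8 in mutant and 15.1 to 6509 in wild-type libraries, the highest being wild type replicate 2. B-cell markers (3 of 5) summed to 2427 to 3872 in mutant and 2352 to 2781 in wild-type libraries, nearly all from Cd79b. Myeloid markers (4 of 5, mostly Lyz2) summed to 1119 to 2037 and 1147 to 1617, epithelial markers (2 of 5, mostly Epcam) to 4230.1 to 7185 and 4102 to 4990.2, and markers of natural killer cells (2 of 4) to 4.41 to 177 and 13.4 to 62.6, mutant before wild type. Mitochondrial transcripts held 1.05% to 1.18% of the reads in mutant and 0.986% to 1.27% in wild-type libraries. Of the markers of other cell types that passed the filter below, none was called. The part of these differences in the results below was not tested.

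Of the 42 genes 17 fell in the mutant, 25 were not called and 0 rose. The summed normalised count of the 42 genes was 181465, 211176 and 218074 in the mutant libraries, against 243939, 264737 and 292382 in the wild-type libraries. The sums of the genotypes did not overlap, and the genes took 0.468% ± 0.054 of the reads in the mutant and 0.588% ± 0.049 in the wild type (SD, n = 3 each). All 42 genes passed the filter of a mean of at least 10 normalised reads, and the calls are those past an adjusted p of 0.05 (limma on log2(value + 1), two-sided, adjusted over 17815 genes). The genes that fell are 40.5% of the 42, where 10.9% of all tested genes were called lower and 7.94% higher (18.8% in either direction). No gene was called higher at an unadjusted p under 0.05 either (0 of 42, and 0 with edgeR or DESeq2). Among the 9283 tested genes whose mean normalised count was at least the lowest mean of the 42 (427.7), 15.7% were called lower and 10% higher (25.8% in either direction). The median log2 change was -0.34 for the 42 genes and 0.03 for all tested genes. Fitted changes were negative for 40 genes, and Nup210l (0.21 ± 0.15) and Kpna4 (0.06 ± 0.10) had positive changes that were not called. With equal library totals those of Kpna6 and Tnpo2 were positive as well, at 0.0444 and 0.0065. The mutant libraries lay below all wild-type libraries for 26 genes (61.9%), where this held for 20.3% of all tested genes and 26% of those in that range of counts, and above them for 1 gene, Nup210l (18% of all tested genes and 19.3% in that range of counts).

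Libraries also differed within each genotype. Mutant replicate 1 was the lowest mutant library for 33 of the 42 genes, wild type replicate 1 was the lowest wild-type library for 32, and wild type replicate 3 the highest for 31. Relative to the wild-type mean, the median gene stood at -0.47, -0.29 and -0.26 on the log2 scale in mutant replicates 1, 2 and 3, against -0.12, -0.00 and 0.13 in the wild-type replicates. The count of 17 was 7 without wild type replicate 2 and 8 without wild type replicate 3, and 12 to 17 when another library was left out. The 7 genes Ipo4, Ipo5, Ipo11, Xpo5, Nup37, Nup62 and Nup133 were called in all 6 of these fits. After scaling the libraries to equal totals, 15 of the 42 genes fell and 0 rose, and the split over all genes moved to 1828 higher and 1648 lower, against 1414 higher and 1938 lower in the fit used here. Because these are bulk libraries, fewer cells with a transcript and less of it per cell cannot be told apart.

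**Figure D1:**
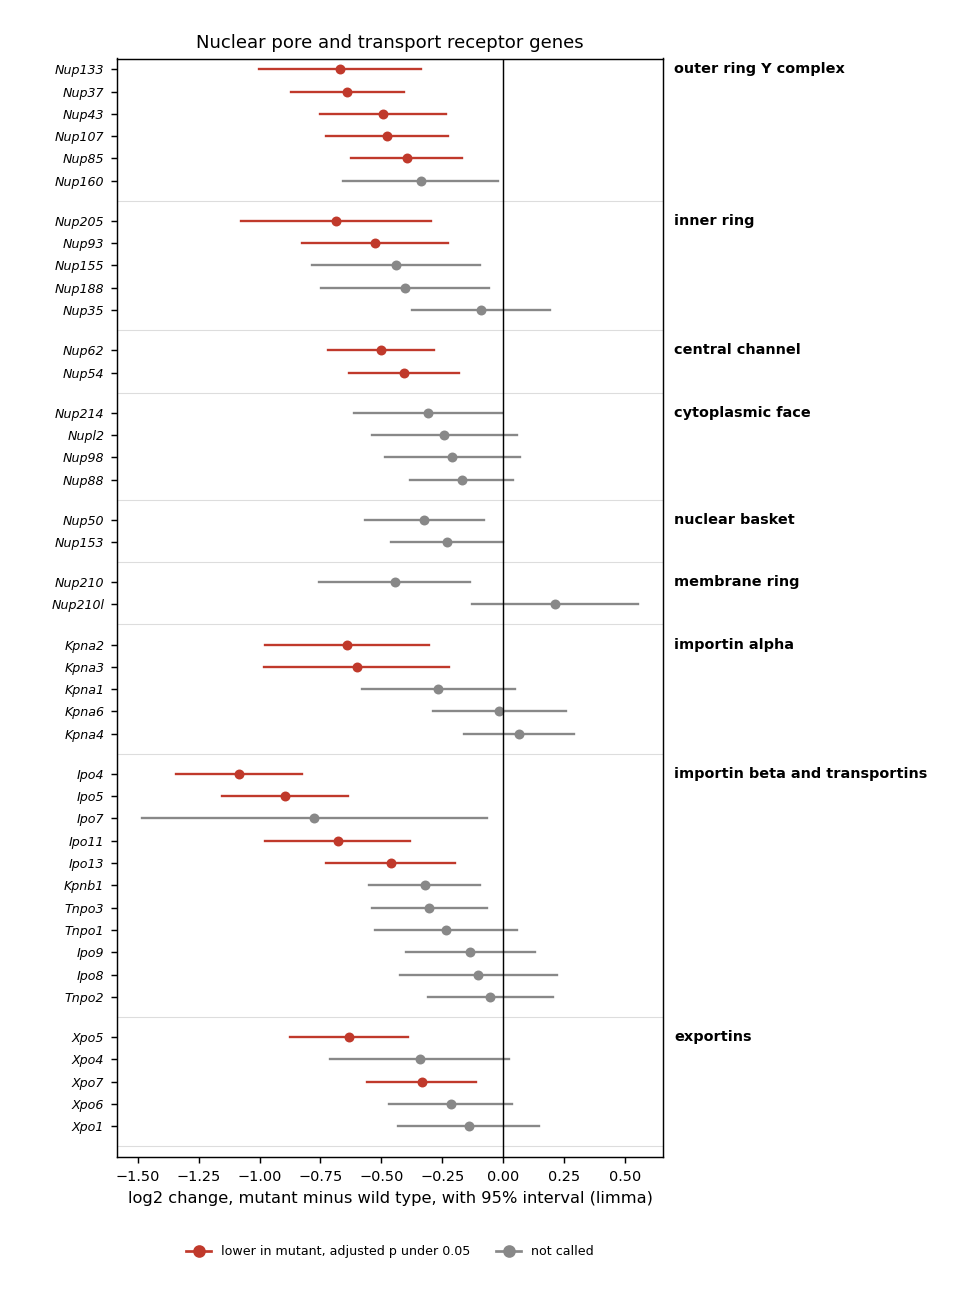
Log2 change (mutant minus wild type) of each of the 42 genes with its 95% interval from the limma fit, grouped by role. The 17 genes drawn in red were called lower, 0 were called higher, and the changes run from -1.08 (Ipo4) to 0.21 (Nup210l).

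Promoter sequences, from 250 bases before to 50 bases after the transcription start, were taken from RefSeq on GRCm38.p6, where 33 of the 42 genes had an entry, 13 of them called lower. They are shown because many of the genes fell together and because Myc, which also fell, encodes a factor that binds E-boxes. In all, 5 short motifs were searched on both strands: the E-box CACGTG, its variants CACGCG and CATGTG, the ETS-type motif CCGGAAG and GCATGCG, the core of the NRF1 motif. No match of one motif overlapped a match of another in these promoters. CACGTG was in the promoters of 6 of the 33 genes (18.2%), against 11.5% of 10754 tested genes with an entry and 7.15% of all 32851 promoters. Of these 6, Ipo4, Nup54 and Nup93 fell, and Ipo7, Nup188 and Tnpo2 were not called. GCATGCG was in 4 promoters (12.1%), against 7.11% of tested genes and 3.58% of all promoters, and of its holders Nup62, Nup107 and Xpo5 fell and Nup50 was not called. CCGGAAG was in 6 (18.2%, against 19.7% of tested genes and 8.86% of all promoters), of which 4 fell. CACGCG was in 10 (30.3%, against 19.3% and 9.27%), of which 2 fell, and CATGTG in 1, the promoter of Ipo7 (3.03%, against 10.8% and 14.2%). Below, Ipo4 had the largest fall of the 42 genes and a single CACGTG 14 bases past the start, and Tnpo2 holds CACGTG at 2 places with a log2 change of -0.05. Nup62 and Xpo5 carry GCATGCG, read on both strands in overlapping letters at each place. The promoter of Ipo4 also holds CCGGAAG and that of Nup62 also CACGCG, both left in small letters. Sequences are 5′ to 3′ on the strand of the gene, with the motif in capitals, at chr14:55635635-55635934 (minus strand) for Ipo4, chr8:85036643-85036942 (plus) for Tnpo2, chr7:44815838-44816137 (plus) for Nup62 and chr17:46202561-46202860 (plus) for Xpo5.
Ipo4: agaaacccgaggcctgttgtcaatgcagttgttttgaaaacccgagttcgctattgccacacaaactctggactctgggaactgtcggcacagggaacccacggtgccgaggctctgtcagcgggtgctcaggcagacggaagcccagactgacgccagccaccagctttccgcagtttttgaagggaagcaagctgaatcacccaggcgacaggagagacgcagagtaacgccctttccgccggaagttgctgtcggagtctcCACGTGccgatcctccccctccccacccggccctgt
Tnpo2: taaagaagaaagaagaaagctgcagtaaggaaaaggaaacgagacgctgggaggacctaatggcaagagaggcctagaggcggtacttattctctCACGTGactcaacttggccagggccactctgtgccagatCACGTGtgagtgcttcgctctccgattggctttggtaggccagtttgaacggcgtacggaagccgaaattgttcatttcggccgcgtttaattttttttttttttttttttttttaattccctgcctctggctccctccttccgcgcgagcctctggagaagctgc
Nup62: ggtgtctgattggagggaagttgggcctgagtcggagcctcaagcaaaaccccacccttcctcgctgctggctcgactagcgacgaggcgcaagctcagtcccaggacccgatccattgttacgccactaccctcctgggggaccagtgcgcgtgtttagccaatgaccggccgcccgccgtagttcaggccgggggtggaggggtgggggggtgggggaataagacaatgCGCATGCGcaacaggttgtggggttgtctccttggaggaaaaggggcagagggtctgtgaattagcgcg
Xpo5: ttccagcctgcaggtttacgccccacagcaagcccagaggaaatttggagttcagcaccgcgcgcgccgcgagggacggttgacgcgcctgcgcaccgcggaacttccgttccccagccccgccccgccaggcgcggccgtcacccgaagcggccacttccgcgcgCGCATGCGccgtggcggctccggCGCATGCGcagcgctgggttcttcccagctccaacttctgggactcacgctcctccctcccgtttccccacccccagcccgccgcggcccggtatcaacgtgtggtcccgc
A match is a string of letters and was not tested as a binding site.

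Among the scaffold genes under the rule, the outer ring had the most called genes. Of the 6 genes grouped here under the Y complex, 5 fell and 1 was not called, with a median log2 change of -0.48. Of all tested genes 10.9% were called lower, and each role group is small. Y complex genes with symbols outside the rule are not among the 6. Of these, Seh1l fell (given below), while Sec13 (-0.17 ± 0.09, adjusted p = 0.223) and the associated Ahctf1 (-0.40 ± 0.15, adjusted p = 0.0853) were not called. Nup98, whose transcript also encodes a Y complex subunit, was grouped with the cytoplasmic face and was not called (-0.21 ± 0.12). Nup37, a small peripheral subunit (chromosome 10, 88146992 to 88178390 on GRCm38, as are all gene positions here), had 1929, 1788 and 1887 normalised reads in the mutant, against 2856, 2786 and 3098 in the wild type. The libraries of a genotype lay close together and the genotypes were far apart, a 1.56-fold lower mean in the mutant (log2 change -0.64 ± 0.10, SE, limma adjusted p = 0.00263). Nup133, a subunit that helps to tether the complex to membrane, had 2361, 3014 and 3286 in the mutant, against 3896, 4665 and 5180 in the wild type (-0.67 ± 0.15, adjusted p = 0.0124). Its libraries spread more but still did not overlap. Nup107 (-0.48 ± 0.11, adjusted p = 0.0162) and Nup43 (-0.49 ± 0.12, adjusted p = 0.0162) fell, as did Nup85 (-0.40 ± 0.10, adjusted p = 0.0238), but all of them lost their call when wild type replicate 2 or 3 was left out, Nup43 and Nup85 also when mutant replicate 2 was, and Nup85 when mutant replicate 1 was (adjusted p up to 0.0602 for Nup107, 0.0755 for Nup43 and 0.104 for Nup85). Nup160, another large subunit, averaged 5585 ± 629 in the mutant and 7115 ± 1362 in the wild type and was not called (-0.34 ± 0.14, adjusted p = 0.127).

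In the inner ring 2 of 5 genes fell and 3 were not called (median -0.44), where 10.9% of all tested genes were called lower. Nup205, one of the large scaffold proteins of the ring, had 3861, 5485 and 6422 normalised reads in the mutant, against 7286, 8274 and 9418 in the wild type. Mutant replicate 1 was well below the other mutant libraries, and the genotypes did not overlap (-0.69 ± 0.17, adjusted p = 0.0223). Nup93, which links the scaffold to the channel proteins, had 4218, 4614 and 5065 in the mutant, against 5646, 6542 and 7959 in the wild type (-0.53 ± 0.13, adjusted p = 0.0229). Leaving out wild type replicate 2 or 3 ended each of these calls, and leaving out mutant replicate 1 or 2 ended that of Nup93 (adjusted p at most 0.071 for Nup205 and 0.0685 for Nup93). Nup155, a subunit next to the membrane (-0.44 ± 0.15, adjusted p = 0.0744, and 0.0355 with DESeq2), and Nup188, the relative of Nup205 (-0.40 ± 0.15, adjusted p = 0.0984), were not called. Nup155 had an adjusted p of 0.119 with equal library totals and of 0.065 to 0.214 with 1 library left out. Nup188 had 3366 in mutant replicate 3, within the range of the wild-type libraries (3319 to 3630), against 2284 and 2250.0 in the other mutant libraries, and without that replicate it was called (adjusted p = 0.00923). With any other library left out Nup188 was not called (0.153 to 0.265). Nup35, the smallest subunit, averaged 1770 ± 126 in the mutant and 1891 ± 231 in the wild type (-0.09 ± 0.13, adjusted p = 0.665).

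Both measured genes that were grouped here under the central channel, Nup62 and Nup54, fell. Each gene was placed in a single group, so this does not cover every nucleoporin that may reach into the channel. Of all tested genes 10.9% were called lower, and so few genes do not set the channel apart. Nup62, whose repeats form the transport barrier and whose promoter is given above, had 7485, 8175 and 9144 normalised reads in the mutant, against 11732, 11412 and 11864 in the wild type. The wild-type libraries were within a narrow range and all above the mutant libraries (-0.50 ± 0.10, adjusted p = 0.00683). Its partner Nup54 had 2587, 2706 and 2808 in the mutant, against 3373, 3587 and 3788 in the wild type, again without overlap (-0.41 ± 0.10, adjusted p = 0.0198). Nup54 lost its call when mutant replicate 2 or wild type replicate 2 or 3 was left out (adjusted p at most 0.0767).

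The faces of the pore held no called gene, but only 10.9% of all tested genes were called lower, and so few genes do not set the faces apart. Their fitted changes were all negative. Every mutant library lay below every wild-type library for Nupl2, Nup88, Nup50 and Nup153, as for 20.3% of all tested genes. On the cytoplasmic face 0 of 4 genes were called (1 at an unadjusted p under 0.05, and 0 with edgeR or DESeq2), with a median of -0.23. Nup214, a docking site for exportin complexes, had 3321, 4230 and 4542 normalised reads in the mutant, against 4377, 5245 and 5273 in the wild type, so that the highest mutant library exceeded the lowest wild-type library (-0.31 ± 0.14, adjusted p = 0.144). Nupl2, the binding site of the mRNA export factor Gle1, had 846, 1050.3 and 987 in the mutant, against 1083, 1232 and 1088 in the wild type (-0.24 ± 0.13, adjusted p = 0.236). Nup88, the partner of Nup214 (-0.17 ± 0.10), and Nup98 (-0.21 ± 0.12), whose transcript also encodes the Y complex subunit Nup96, had adjusted p-values of 0.239 and 0.27.

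At the nuclear basket 0 of 2 genes were called (2 at an unadjusted p under 0.05, 0 with edgeR and 1 with DESeq2). Nup50, which helps to release cargo from importin alpha, had 4231, 4397 and 4580 normalised reads in the mutant, against 4831, 6028 and 5731 in the wild type (-0.32 ± 0.11, adjusted p = 0.0652). The genotypes did not overlap, and it was called with DESeq2 (adjusted p = 0.0433) or without wild type replicate 1 (0.0379). It was not called with equal library totals (0.112), with edgeR (0.0703) or with any other library left out (0.0893 to 0.233). Nup153 had 4083, 4759 and 4846 in the mutant, against 5098, 5385 and 5550.1 in the wild type (-0.23 ± 0.10, adjusted p = 0.148). Nup155 and Nup50 lie on chromosome 15, as Myc does, at distances of 53.9 and 22.9 megabases from it.

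The membrane glycoprotein gene Nup210, which supports the homeostasis of peripheral CD4 T cells in mice, had 11807, 16831 and 16371 normalised reads in the mutant, against 21400, 21212 and 18111 in the wild type. The groups did not overlap, and the change of -0.45 ± 0.14 just missed the threshold (adjusted p = 0.0503). It passed with DESeq2 (adjusted p = 0.0259), with the filter raised to a mean of 50 (0.0468), with a pseudocount of 10 (0.0493) and without mutant replicate 2 (0.0472). It did not pass with equal library totals (0.0967), with edgeR (0.0697) or with any other library left out (0.0501 to 0.151). Nup210l, its paralogue best known from testis, had 485, 433 and 459 in the mutant, against 420, 410 and 359 in the wild type. This was the one gene with every mutant library above every wild-type library, and it was not called (0.21 ± 0.15, adjusted p = 0.362). Of the 2 membrane genes under the rule 0 were called (1 at an unadjusted p under 0.05, 0 with edgeR and 1 with DESeq2). The membrane proteins Pom121 and Ndc1, with symbols outside the rule, are not in this group. Their genes were called lower and are given below.

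**Figure D2:**
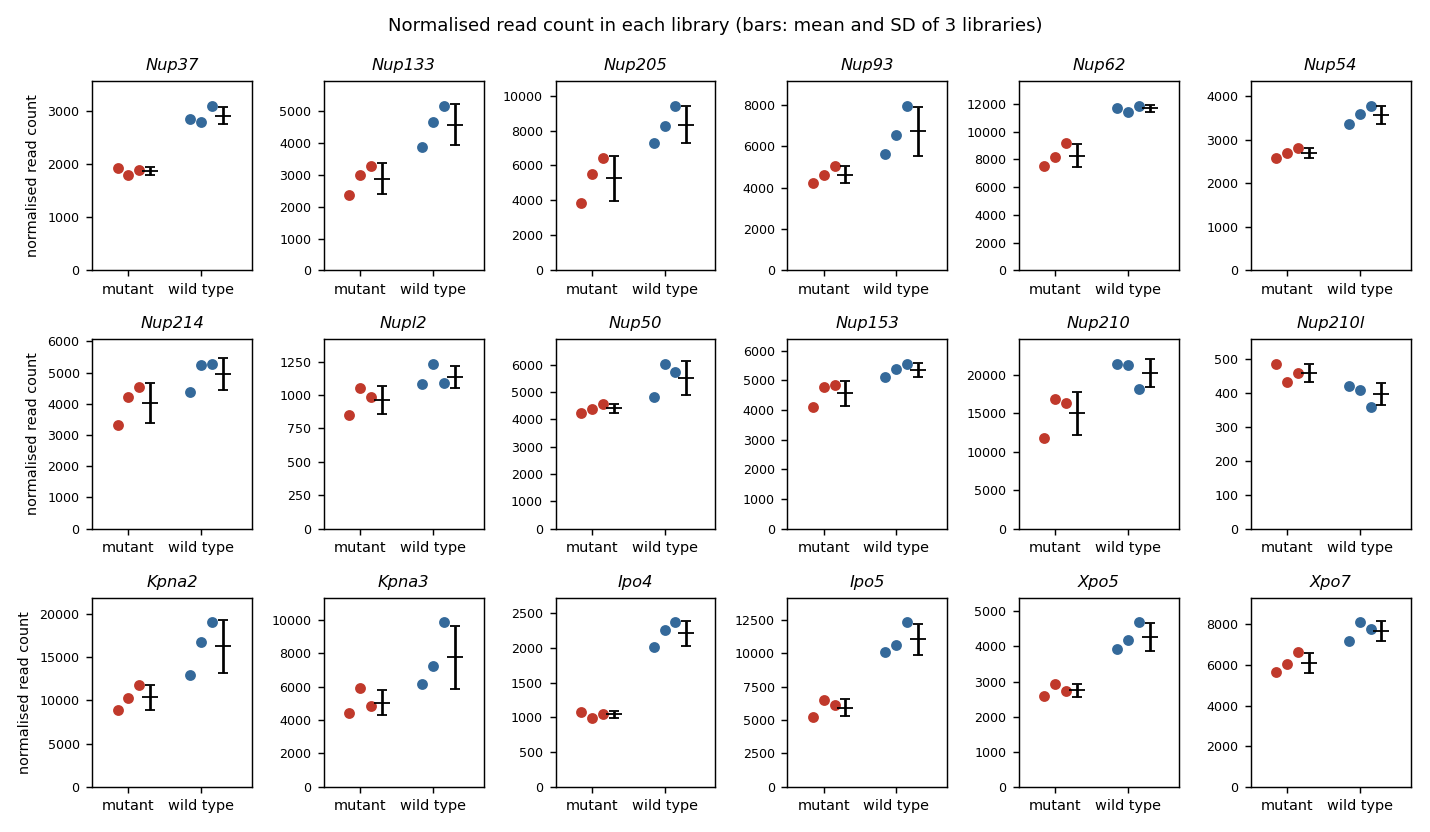
Normalised read count (linear axis from 0) in each library for the 2 genes of smallest p in each role group, mutant libraries in red and wild-type libraries in blue, with the mean and SD of 3 libraries in black. Ipo4 lies at 996 to 1084 in the mutant, below 2018 to 2372 in the wild type, while Nup210l is the gene whose mutant libraries lie above.

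Importin alpha proteins read the classical localisation signal and hand cargo to importin beta. Of 5 genes 2 fell and 3 were not called (median -0.27), where 10.9% of all tested genes were called lower. Kpna2, the form best known from proliferating cells, had 8895, 10306 and 11797 normalised reads in the mutant, against 12902, 16736 and 18997 in the wild type. The genotypes did not overlap although the wild-type libraries spread widely (-0.64 ± 0.15, adjusted p = 0.0161). Kpna3 had 4413, 5897 and 4840.2 in the mutant, against 6176, 7228 and 9861 in the wild type, and wild type replicate 3 was far above the others (-0.60 ± 0.17, adjusted p = 0.0346). Kpna2 lost its call when mutant replicate 1 or wild type replicate 2 or 3 was left out (adjusted p at most 0.0621). Kpna3 lost it when mutant replicate 1 or 3 or wild type replicate 2 or 3 was left out (at most 0.107) and with equal library totals (0.0527). GENCODE lists a processed pseudogene of Kpna2, Kpna2-ps, and reads shared with it cannot be assigned with certainty. Kpna4, the closest relative of Kpna3, averaged 6137 ± 483 in the mutant and 5869 ± 404 in the wild type (0.06 ± 0.10, 95% interval -0.16 to 0.29, adjusted p = 0.704). Kpna6 averaged 1408 ± 152 in the mutant and 1418 ± 57 in the wild type (-0.02 ± 0.12, adjusted p = 0.945), and its relative Kpna1 changed by -0.27 ± 0.14 (adjusted p = 0.214). The fitted sign of Kpna4 turned without mutant replicate 1, and that of Kpna6 with equal library totals and in 3 other fits.

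The largest changes were among the importin beta family, where 4 of 11 genes fell and 7 were not called (median -0.32). Among all tested genes 10.9% were called lower. Ipo4, an importin of histones and ribosomal proteins (chromosome 14, 55625400 to 55635957), had 1084, 996 and 1051 normalised reads in the mutant, against 2018, 2257 and 2372 in the wild type. The libraries of each genotype lay close together and the genotypes were far apart, a 2.12-fold lower mean in the mutant (-1.08 ± 0.12, 95% interval -1.34 to -0.82, adjusted p = 0.000368). GENCODE M21 lists a readthrough gene, Gm49378, that shares 55.3% of the exon bases of Ipo4, and reads shared by such genes can be dropped in counting. Ipo5, which imports ribosomal proteins and histones, had 5202, 6477 and 6107 in the mutant, against 10116, 10653 and 12320 in the wild type, a 1.86-fold lower mean (-0.90 ± 0.12, adjusted p = 0.000873). Ipo11 (2921 ± 302 in the mutant and 4696 ± 744 in the wild type, -0.68 ± 0.13, adjusted p = 0.00694) and the bidirectional receptor gene Ipo13 (2187 ± 78 in the mutant and 3029 ± 387 in the wild type, -0.46 ± 0.12, adjusted p = 0.0239) also fell. Ipo13 lost its call when mutant replicate 2 or 3 or wild type replicate 2 or 3 was left out (adjusted p at most 0.0893).

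The other members of this family were not called, with different spreads. Kpnb1, importin beta itself and the partner of every importin alpha, had 5132, 5642 and 5198 normalised reads in the mutant, against 6666, 7285 and 6051 in the wild type. The groups did not overlap (-0.32 ± 0.10, adjusted p = 0.0538), and the gene was called with DESeq2 (0.0349), with the filter raised to a mean of 50 (0.0429) and without wild type replicate 3 (0.0447). It was not called with equal library totals (0.0961), with edgeR (0.0589) or with any other library left out (0.0793 to 0.21). Ipo7, an importin of ribosomal proteins, had 2262, 4059 and 2860 in the mutant, against 3585, 4067 and 9031 in the wild type. Its change of -0.78 ± 0.32 was the third largest of the list, but wild type replicate 3 alone was high and the groups overlapped (adjusted p = 0.119, and -0.36 without that replicate). Tnpo3, the carrier of splicing factors of the SR family, did not overlap between genotypes (-0.30 ± 0.11, adjusted p = 0.0728). Tnpo1, which reads the signal of hnRNP proteins (-0.24 ± 0.13), Ipo9, an importin of histones (-0.13 ± 0.12), Ipo8 (-0.10 ± 0.14) and Tnpo2, the close relative of Tnpo1 (-0.05 ± 0.12), had adjusted p-values of 0.239 to 0.784. Kpnb1 and Ipo7 were singled out after their values were seen.

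Of 5 exportin genes 2 fell and 3 were not called (median -0.33), where 10.9% of all tested genes were called lower. Xpo5, which exports microRNA precursors, had 2581, 2925 and 2734 normalised reads in the mutant, against 3919, 4199 and 4691 in the wild type. The genotypes were clearly apart, with a 1.55-fold lower mean in the mutant (-0.63 ± 0.11, adjusted p = 0.00352). Xpo7 had 5626, 6028 and 6614 in the mutant, against 7156, 8096 and 7768 in the wild type (-0.33 ± 0.10, adjusted p = 0.0436). That call was lost when any 1 library other than mutant replicate 3 was left out (adjusted p at most 0.163), with equal library totals (0.0876) and with edgeR (0.0545). Xpo1, the receptor of the leucine-rich export signal and of ribosomal subunits, had 10642, 11312 and 14725 in the mutant, against 12799, 12592 and 14784 in the wild type, and the groups overlapped (-0.14 ± 0.13, 95% interval -0.43 to 0.15, adjusted p = 0.482). This gene was singled out after its values were seen. Xpo4 (-0.34 ± 0.16) and the actin exportin gene Xpo6 (-0.22 ± 0.11) had adjusted p-values of 0.176 and 0.214.

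Levels per length put the genes in order. Mean normalised reads were divided by the length of the principal transcript, in kilobases. Kpna2 was highest, at 5031 ± 706 per kilobase in the mutant and 7893 ± 1500 in the wild type (SD, n = 3 each). In the wild type it was followed by Nup62 (3038 ± 306 in the mutant and 4287 ± 85 in the wild type), Nup85 (3092 ± 147 and 4077 ± 396.8) and Nup88 (3574 ± 215 and 4022 ± 266, mutant before wild type). Nup62, Nup85 and Nup88 did not differ beyond their spread in the wild type. Much of this order depended on the length used. Divided by the union of annotated exons instead, an alternative chosen after seeing the data, Kpna2, Nup62 and Nup85 still ranked 1, 2 and 3 in the wild type, but Nup88 ranked 10, at 1048 per kilobase in the mutant and 1180 in the wild type. By the same change Xpo6 moved from rank 11 to 28 and Xpo7 from 14 to 35. Nup210l was lowest, at 80.8 ± 4.6 per kilobase in the mutant and 69.8 ± 5.7 in the wild type, and the gene next to it in order, Kpna6, stood at 247 ± 27 and 248 ± 10 per kilobase.

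**Figure D3:**
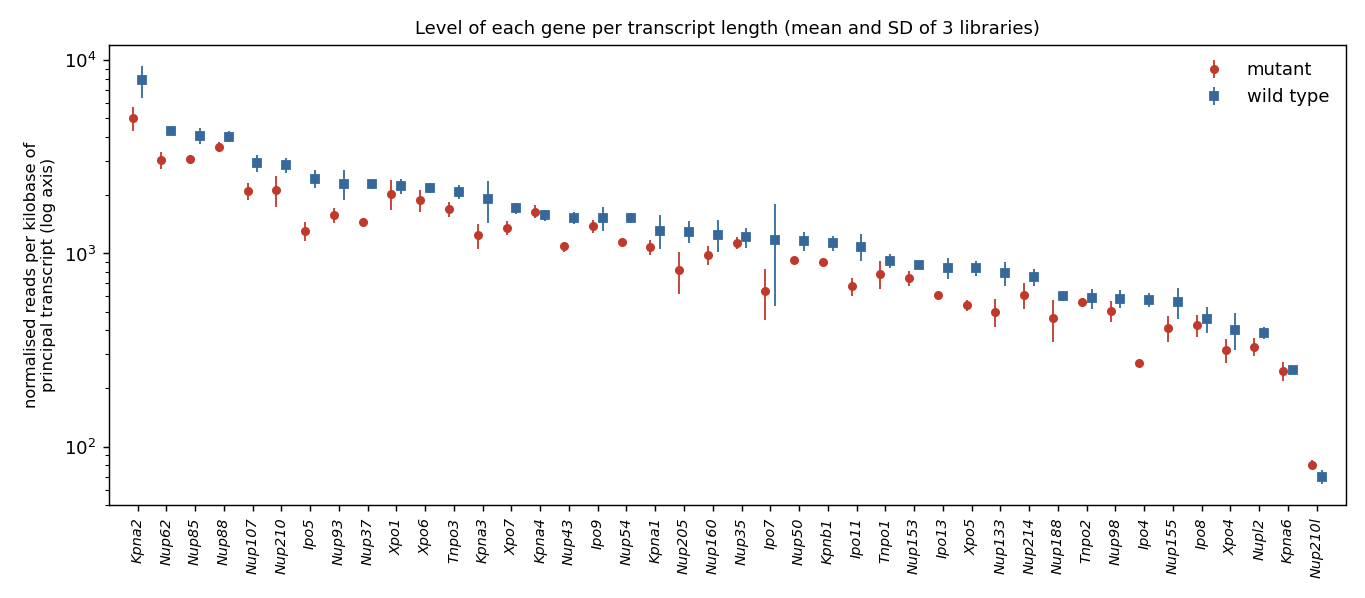
Mean normalised reads per kilobase of principal transcript (log axis, with the SD of 3 libraries) for the 42 genes, mutant in red and wild type in blue, ordered by the wild-type level. Kpna2 is highest and Nup210l lowest in each genotype.

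Other genes of nuclear transport, and genes of the nuclear envelope and lamina, have symbols outside the rule. Of 54 such genes on the list, all tested, 15 fell, 3 rose and 36 were not called, with a median of -0.23. The 54 include 13 genes of the envelope and lamina, of which 2 fell and 2 rose. Of all tested genes 10.9% were called lower and 7.94% higher, and the lists within the 54 differed in their share. The Ran cycle had 5 genes called lower out of 6 (median -0.61, 0 called higher). Ran itself had 28478, 24953 and 27401 normalised reads in the mutant, against 38761, 46707 and 48644 in the wild type, a 1.66-fold lower mean (-0.73 ± 0.11, adjusted p = 0.00164). The genes for its nucleotide exchange factor Rcc1 (-0.82 ± 0.12, adjusted p = 0.00163) and its binding protein Ranbp1 (-0.69 ± 0.10, adjusted p = 0.00136) fell, and so did Nutf2, the carrier of Ran into the nucleus, and Rangap1, its GTPase activator. Every mutant library lay below every wild-type library for each of the 6 Ran cycle genes, Ranbp3 (-0.22 ± 0.10, not called) included. The same held for 20.3% of all tested genes. The exportin genes Xpot, which exports transfer RNA, and Cse1l, which returns importin alpha to the cytoplasm, fell too. Xpot had 2925, 3432 and 3300 in the mutant, against 6236, 6473 and 7772 in the wild type (-1.08 ± 0.12, adjusted p = 0.000373), a change of the size of that of Ipo4, and Cse1l averaged 8888 ± 975 in the mutant and 13112 ± 1878 in the wild type (-0.56 ± 0.12, adjusted p = 0.0127).

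Of 10 pore proteins with other symbols 3 fell and 0 rose (median -0.27). These were the membrane proteins Pom121 (-0.60 ± 0.13, adjusted p = 0.0101) and Ndc1 (-0.64 ± 0.18, adjusted p = 0.0306) and the Y complex subunit Seh1l (-0.33 ± 0.10, adjusted p = 0.0406). Pom121 lost its call when wild type replicate 2 was left out (adjusted p = 0.0509), Ndc1 when mutant replicate 1 or 2 or wild type replicate 2 or 3 was (at most 0.0959) and Seh1l when any 1 library was (0.0688 to 0.131) and with equal library totals (0.0744). Of 20 genes of mRNA export 17 were not called, and the share that fell was about that of all tested genes (10.9%). The genes called were 2 that fell, Alyref (-0.36 ± 0.09, adjusted p = 0.0245) and the helicase gene Ddx39 (-0.31 ± 0.09, adjusted p = 0.0408), and 1 that rose, Zc3h11a, at 968 ± 64 in the mutant and 645 ± 94 in the wild type (0.59 ± 0.15, adjusted p = 0.0211). Each of these 3 calls was lost without 4 of the 6 libraries in turn (adjusted p up to 0.0985 for Alyref, 0.146 for Ddx39 and 0.0909 for Zc3h11a), and those of Alyref and Ddx39 with equal library totals (0.0503 and 0.0694). Nmd3, the adaptor that links the large ribosomal subunit to Xpo1, fell (-0.47 ± 0.11, adjusted p = 0.0171, and up to 0.061 without mutant replicate 2 or wild type replicate 1), while the adaptor genes Phax (-0.21 ± 0.13) and Snupn (0.05 ± 0.13) were not called.

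Of 13 genes of the nuclear envelope and lamina 2 fell, 2 rose and 9 were not called (median 0.02), against 10.9% lower and 7.94% higher among all tested genes. So few calls do not set the list apart. Syne2, which ties the nucleus to the cytoskeleton, had 2481, 2899 and 2930.4 normalised reads in the mutant, against 1244, 833 and 996 in the wild type (1.45 ± 0.16, adjusted p = 0.000367). Its partner in the inner membrane, Sun2, had 2169, 2241 and 1849 in the mutant, against 1217, 1356 and 1143 in the wild type (0.75 ± 0.13, adjusted p = 0.00318). Both remained called in each of the 6 fits that left out a library. Banf1, which binds chromatin to the envelope, fell (12745 ± 1287 in the mutant and 17483 ± 561 in the wild type, -0.46 ± 0.10, adjusted p = 0.00992), a call lost without wild type replicate 2 (0.0507). The other gene of this list that fell was the lamin gene Lmnb2 (-0.47 ± 0.12, limma adjusted p of 0.0232), which was singled out once its value was known.

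**Figure D4:**
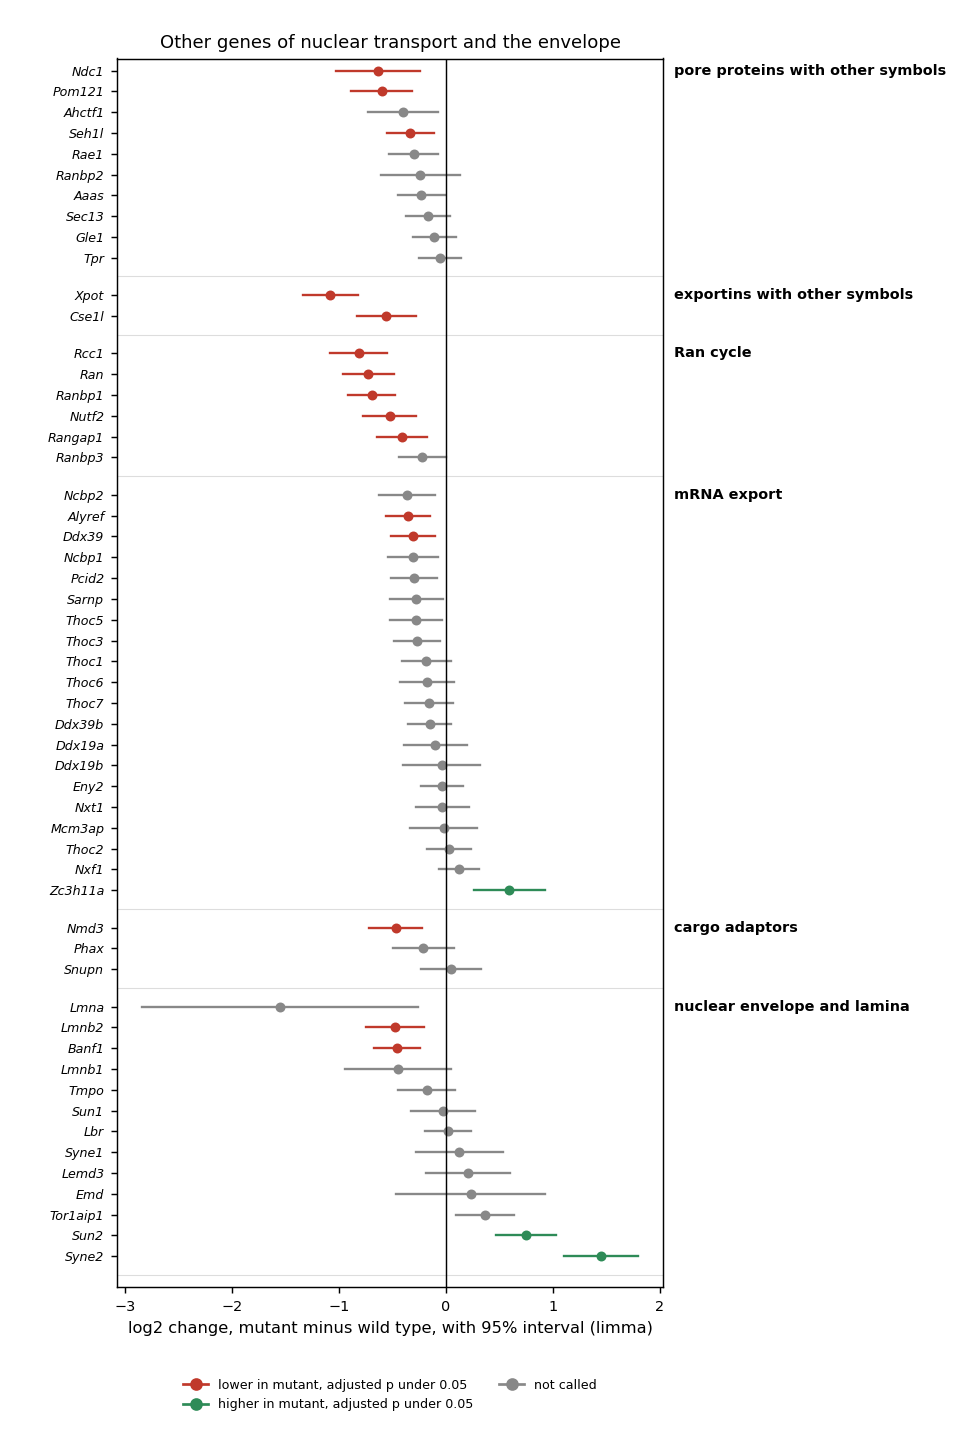
Log2 change (mutant minus wild type) with its 95% interval from the limma fit for 54 further genes of nuclear transport and the envelope, grouped by list. Red genes (15) were called lower and green genes (3) higher, namely Zc3h11a, Sun2 and Syne2.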

How the data were processed

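Total RNA was amplified with the SMART-Seq v4 kit, tagged with Nextera XT and sequenced on an Illumina HiSeq, per the labels' protocols. These kits do not record strand, so reads of overlapping genes cannot be assigned with certainty. STAR 2.5.3, featureCounts, DESeq2 1.20.0 and the builds mm10 and GRCm38 were used, per the submitters' processing notes. No annotation release or counting option is given in the sources used here. As deposited, a value is a signal: the read count of a gene after the authors' scaling by a size factor of the library. Every value of a library was a whole multiple of 1 step, and whole reads were recovered for 100% of 126810 values (tolerance 0.1 reads). On these reads edgeR called 3283 genes and DESeq2 4168. Recovered reads numbered 38.6 to 51.3 M per library.

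Symbols and positions came from GENCODE M21 (21100 of 21135 IDs matched, the other 35 holding 0.00802% of reads). No other sample's column was present. Genotype was tested with limma 3.58.1 (R 4.3.3, trend) on log2(value + 1) of the 17815 genes averaging 10 or more (mutant minus wild type, two-sided), with Benjamini-Hochberg adjustment at 0.05. Adjusted p-values come from this limma fit where no other tool is named. Errors of changes are standard errors, and those of levels are SD (n = 3). The log2(value + 1) scale understates changes of rare transcripts. A p-value here reflects only how these libraries vary, and that variation may be technical. Within a group, libraries differed by more than sampling noise (chi-square over degrees of freedom, 27.2 to 56.9).

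The genes, lists and roles were chosen with earlier results of these data known. Every gene under the rule is named, with the value in every library for the 2 of smallest p per role group, any that rose and the 2 of highest level per kilobase. From each other list the 3 genes of smallest p are named, and Sec13 and Ahctf1 as further genes of the Y complex. Alternatives were equal library totals, pseudocounts of 0.5 and 10, no filter, a filter at a mean of 50, a replicate block, leaving out each library, edgeR 4.0.16 with TMM and DESeq2 1.42.0 on recovered reads. The methods were also run on counts simulated for each gene independently. Such counts lack shifts shared by many genes within a library, and no result here rests on that run. Principal transcripts were those marked by APPRIS in GENCODE, the longest where several were. The motifs were chosen after the values were seen.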

Additional observations from a re-analysis of the deposited data

How the results depend on the processing

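The number of the 42 genes called lower was 15 to 21 under other scalings, pseudocounts, filters and tests (15 with equal library totals, 16 with edgeR, 19 with the filter raised to a mean of 50 and 21 with DESeq2), and 0 were called higher in any of these fits. DESeq2 called all 17 genes that limma called, and edgeR 16 of them. Leaving out 1 library gave 7 to 17 genes called lower, medians of -0.42 to -0.29 for the 42 genes and 1905 to 2788 genes called over the whole table (3352 with all libraries). Of the other transport and envelope genes 6 to 15 were then called lower (15 with all libraries, 8 and 6 when replicate 2 of the mutant and of the wild type was left out). The cause was not tested. Of the values that changed sign, none was called. With equal library totals they were Kpna6 (0.0444) and Tnpo2 (0.0065), and with edgeR Kpna6 (0.0036). Leaving out each library in turn gave -0.0918 to 0.0645 for Kpna6, -0.00031 to 0.12 for Kpna4, -0.21 to 0.0137 for Ipo8, -0.154 to 0.017 for Tnpo2 and -0.0096 to 0.127 for Snupn. With the replicate number as a block 17 of the 42 genes fell and 3066 genes were called in all. The numbers were not taken to pair the libraries, since deviations of same-numbered libraries correlated at -0.022, -0.066 and -0.0097 across 17815 genes and no library correlated best with its own number. In this fit Xpo7 was not called (adjusted p = 0.0545) and Nup155 was (0.0412). Levels per kilobase changed order with the length used: over the union of annotated exons Nup88 moved from rank 4 to 10 in the wild type. At 38.6 M reads or more per library, the lowest mean of the 42 genes was 427.7 normalised reads. Groups of 3 libraries limit what can be called.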
